A study of Homo sapiens with 21 samples.

Results

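ST6GAL1 and 8 other sialyltransferase genes (ST3GAL1, ST3GAL2, ST3GAL3, ST3GAL4, ST3GAL5, ST3GAL6, ST6GALNAC2 and ST6GALNAC4) were followed through 21 RNA-seq libraries of HT1376 tumours grown in mice. The 9 genes were chosen by symbol, from earlier results of these same libraries, out of 57500 Ensembl genes, and all 9 were found and passed the filter on low counts that left 21958 genes. Their levels and differences are therefore given as a description, without p-values. Whether a member passes the threshold used for all genes is part of that description and is not an independent test. HT1376 is an established human bladder carcinoma line. The tumours grew under the skin of female CB17 SCID mice aged 6 to 8 weeks, which lack T and B lymphocytes but keep a mouse stroma, vessels and innate immune cells. The 7 groups of 3 libraries were vehicle and 6 compounds. These were CPI-0209, CPI-1205, PF-06821497, MAK683, Valemetostat and tazemetostat. Each was dosed orally once a day at 75 mg/kg, and harvest followed the day 15 dose by 1 hour. All groups share the line and the host strain, and the labels do not say whether the 3 libraries of a group came from 3 animals. The compounds act on PRC2, the complex that places the methyl mark on histone H3 found at silent genes. MAK683 binds its EED subunit, and the others are inhibitors of the catalytic EZH subunits.

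Sialyltransferases are Golgi enzymes that put sialic acid, a negatively charged sugar, on the ends of the glycans of proteins and lipids. The ST6GAL and ST3GAL enzymes attach it to galactose, on the sixth or the third carbon, and the ST6GALNAC enzymes to N-acetylgalactosamine. ST6GAL1 is the main enzyme that caps N-glycans on the sixth carbon, and its product alters the turnover and signalling of receptors and integrins in epithelial tumours. ST3GAL5 starts ganglioside synthesis by making GM3, and ST3GAL1 and ST3GAL2 cap mucin-type O-glycans.

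The windows around 3 start sites are printed because they belong to the member that moved most (ST6GAL1), to one that moved less (ST3GAL5) and to one that was not called (ST3GAL4). Each runs from 250 bases before to 50 after a RefSeq start on GRCh38.p14, and the upstream-most window of each gene is shown. The windows lie at chr3:186930276-186930575 on the plus strand for ST6GAL1, at chr2:85888985-85889284 on the minus strand for ST3GAL5, and at chr11:126355762-126356061 on the plus strand for ST3GAL4. Capitals mark CG dinucleotides, which read the same on both strands.
ST6GAL1: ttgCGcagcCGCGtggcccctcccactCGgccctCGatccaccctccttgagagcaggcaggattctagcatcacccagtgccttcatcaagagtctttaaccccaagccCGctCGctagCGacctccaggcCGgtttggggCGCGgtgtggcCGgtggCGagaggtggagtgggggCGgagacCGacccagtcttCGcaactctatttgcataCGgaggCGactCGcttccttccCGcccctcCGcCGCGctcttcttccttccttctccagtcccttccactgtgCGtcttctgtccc
ST3GAL5: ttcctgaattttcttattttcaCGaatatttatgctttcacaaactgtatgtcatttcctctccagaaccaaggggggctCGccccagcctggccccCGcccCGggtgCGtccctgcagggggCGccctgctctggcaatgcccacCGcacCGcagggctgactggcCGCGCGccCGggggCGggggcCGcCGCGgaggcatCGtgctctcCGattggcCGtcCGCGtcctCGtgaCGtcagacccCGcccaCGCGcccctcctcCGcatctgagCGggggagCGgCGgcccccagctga
ST3GAL4: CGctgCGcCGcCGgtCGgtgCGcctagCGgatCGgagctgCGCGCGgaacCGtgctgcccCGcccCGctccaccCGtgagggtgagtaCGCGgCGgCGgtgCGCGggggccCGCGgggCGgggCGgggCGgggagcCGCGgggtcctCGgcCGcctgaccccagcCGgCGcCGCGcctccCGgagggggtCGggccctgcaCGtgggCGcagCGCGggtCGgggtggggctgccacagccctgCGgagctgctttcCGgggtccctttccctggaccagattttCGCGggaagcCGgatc
The ST6GAL1 window held 24 CG dinucleotides, a number that 33.9% of all 35116 RefSeq windows reach. The ST3GAL5 window held 30 (reached by 22.4%) and the ST3GAL4 window 46 (reached by 2.89%), beside a median of 14 over all windows. Other starts of the same genes gave other counts, namely 36, 48, 3 and 3 for ST3GAL5 and 9 and 8 for ST3GAL4, while ST6GAL1 has 1 window. RefSeq windows were matched for 6 of the 9 genes (15 windows), and were not matched for ST3GAL1, ST3GAL2 and ST6GALNAC2. The motif TATAAA, read on both strands, was in none of the 15 windows and in 11.5% of all windows.

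By the files' coordinates on hg38, ST6GAL1 (ENSG00000073849) spans chr3:186930485-187078553 on the plus strand and overlaps no other listed gene. ST3GAL5 (ENSG00000115525) spans chr2:85839144-85889014 on the minus strand and also overlaps none. ST3GAL2 (ENSG00000157350) spans chr16:70375978-70439237 on the minus strand. ST3GAL6 overlaps DCBLD2 and ST3GAL6-AS1, ST3GAL4 overlaps KIRREL3, ST3GAL3 overlaps KDM4A-AS1 and ST3GAL3-AS1, and ST6GALNAC2 overlaps ENSG00000267078. Each of these partners lies on the opposite strand. On the same strand, ST3GAL6 overlaps the pseudogene PDLIM1P4 (246 counts over all libraries) and ST3GAL3 overlaps ENSG00000233674 (166 counts), which strand cannot separate. The strand setting of the counting is not given in the sources used here, so reads in those overlaps cannot be assigned with certainty.

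The smallest library, CPI-0209 library 3, held 9725690 counts and the largest 25771778. Levels are given as CPM, each library's counts scaled to a common depth by the trimmed mean of M-values (TMM). Levels of different genes are set side by side as TPM, which also divides by gene length. A count of 3 in a library corresponded to 0.116 to 0.308 CPM. Differences against vehicle are log2 fold changes from edgeR's quasi-likelihood fit with their standard errors. A gene is called changed where the Benjamini-Hochberg adjusted p over all 21958 genes was under 0.05. All 6 comparisons share the vehicle libraries. In bulk tumour RNA, fewer cells of a type and less RNA per cell cannot be told apart.

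With CPI-0209, 4 of the 9 sialyltransferases were called higher (ST6GAL1, ST3GAL1, ST3GAL2 and ST3GAL5) and 0 lower, where 22.3% of all tested genes were called higher and 18.8% lower. With Valemetostat, the count was also 4 higher and 0 lower (15.0% and 12.2% of all genes), and with MAK683 4 higher and 0 lower (10.4% and 5.17% of all genes). With PF-06821497, 2 were called higher (ST6GAL1 and ST3GAL5) and 0 lower, beside 5.96% and 3.59% of all genes. With tazemetostat and CPI-1205, 0 of 9 were called in either direction, as were 0% of all genes by edgeR. At an unadjusted p under 0.05 these 2 comparisons held 647 and 2713 genes, 1 of them a member in each (ST3GAL5). DESeq2 called 5 genes higher and 0 lower with tazemetostat, and 5 higher and 41 lower with CPI-1205, and limma-voom called 0 in both. The median log2 fold change over the 9 members was 0.21 with CPI-0209, beside -0.02 over all tested genes. Since the genes were picked with these comparisons known, nothing is read from these shares.

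**Figure D1:**
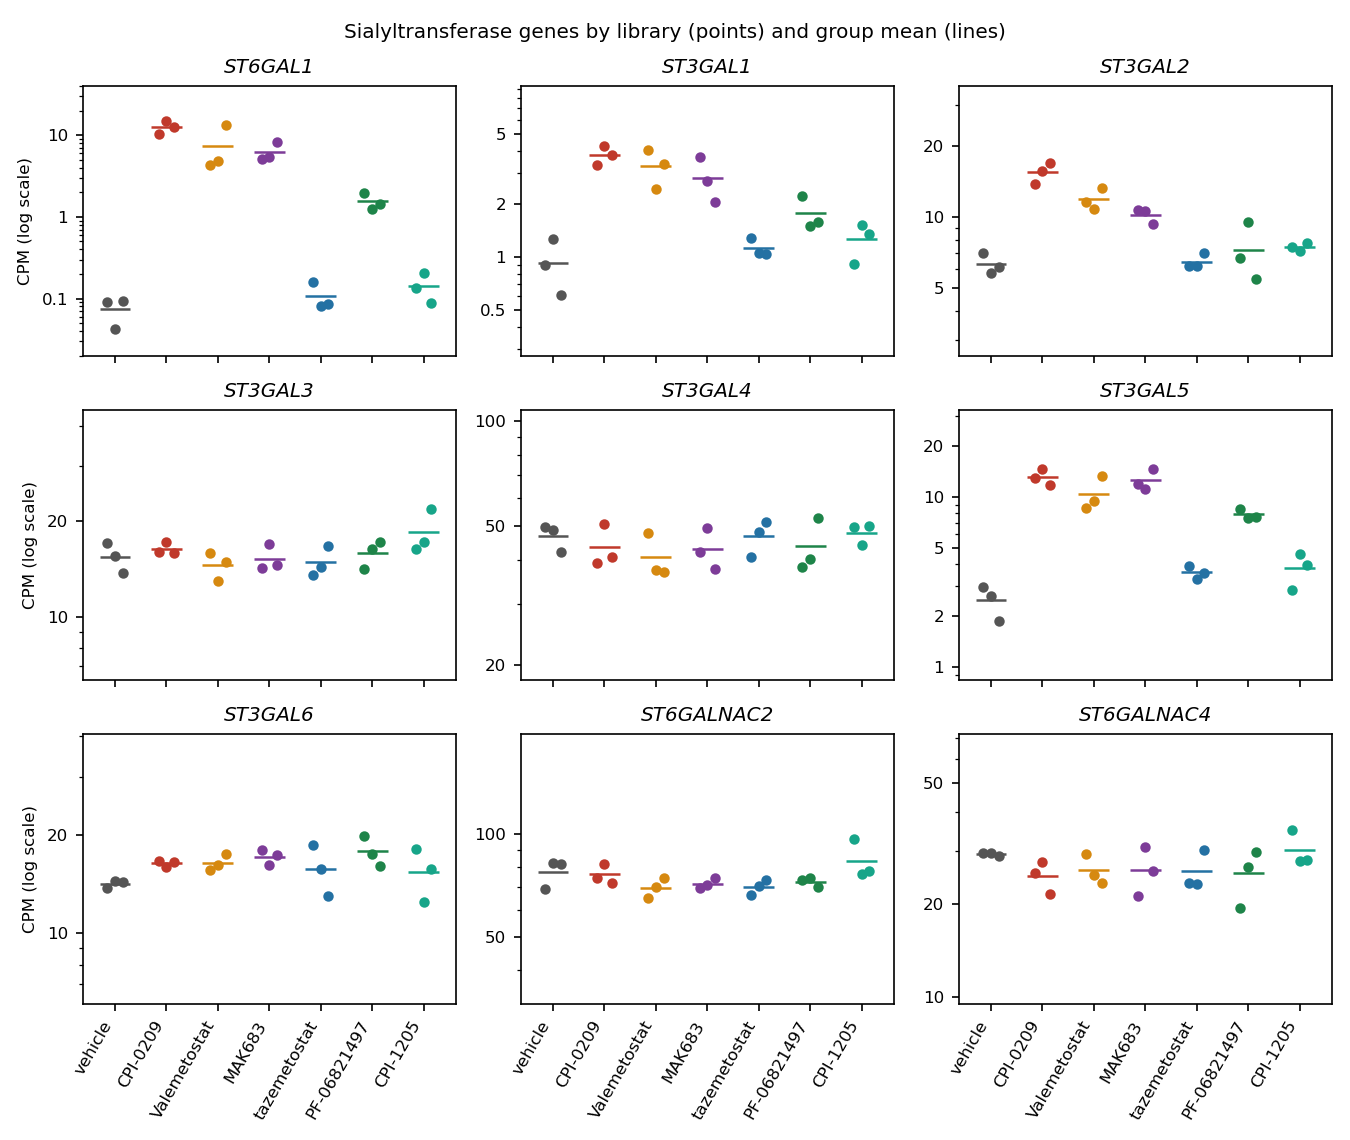
CPM of each sialyltransferase gene (vertical axes, log scale, a different range in each panel) in the 7 groups of 3 libraries; points are libraries and lines are group means. ST6GAL1 lies between 0.0420 and 0.0932 CPM in the vehicle libraries and between 10.3 and 14.9 CPM with CPI-0209, while ST3GAL3, ST3GAL4, ST3GAL6, ST6GALNAC2 and ST6GALNAC4 were not called in any comparison.

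ST6GAL1 was close to undetected in vehicle tumours and plainly detected with 4 of the 6 compounds. It passed the low-count filter through the libraries of those 4 compounds alone. The vehicle libraries held 2, 1 and 2 of its counts, or 0.0905, 0.0420 and 0.0932 CPM. The CPI-0209 libraries held 184, 260 and 131 counts, or 10.3, 14.9 and 12.5 CPM. Every CPI-0209 library was above every vehicle library by more than the spread within either group.

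With Valemetostat the ST6GAL1 level was 4.29, 4.89 and 13.2 CPM. Library 3 stood above the others, and the group mean of 7.47 CPM became 4.59 CPM without it. With MAK683 the ST6GAL1 level was 5.07, 5.43 and 8.27 CPM. PF-06821497 gave 1.97, 1.25 and 1.45 CPM, below every library of those 3 groups and above every vehicle library. Tazemetostat gave 0.160, 0.0805 and 0.0863 CPM (4, 2 and 2 counts), and CPI-1205 gave 0.136, 0.206 and 0.0895 CPM (3, 5 and 2 counts). The libraries of both groups overlapped those of vehicle and of each other.

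The log2 fold change of ST6GAL1 against vehicle was 7.29 ± 0.52 (SE) with CPI-0209, 6.53 ± 0.53 with Valemetostat and 6.29 ± 0.53 with MAK683. It was 4.27 ± 0.60 with PF-06821497. Tazemetostat gave 0.52 ± 0.93, with a 95% interval from -1.40 to 2.45, and CPI-1205 gave 0.92 ± 0.89, from -0.93 to 2.76. The summed counts behind these values were 5 with vehicle, 8 with tazemetostat and 10 with CPI-1205. The ratio of summed, depth-scaled counts to vehicle was 169 for CPI-0209, with an exact 95% interval from 72.1 to 523 that covers counting error only. For PF-06821497 it was 20.6 (8.56 to 65.0), and for tazemetostat 1.48 (0.426 to 5.74).

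By group mean, the order of ST6GAL1 was CPI-0209 (12.6 CPM), Valemetostat (7.47), MAK683 (6.26), PF-06821497 (1.56), CPI-1205 (0.144), tazemetostat (0.109) and vehicle (0.0752). The ranges of neighbours overlapped except between MAK683 and PF-06821497 and between PF-06821497 and CPI-1205. Setting CPI-0209 against each other compound at the same dose and time made 5 pairs. CPI-0209 minus Valemetostat was 0.76 ± 0.31 on the log2 scale (95% interval 0.11 to 1.40), and it was not called after adjustment over all genes. Without Valemetostat library 3 it was 1.46 ± 0.25 (0.93 to 1.98) and was called, and without another of the 6 libraries it was not called (0.47 to 0.89). CPI-0209 minus MAK683 was 1.01 ± 0.31 (0.36 to 1.66), minus PF-06821497 3.02 ± 0.35, minus CPI-1205 6.37 ± 0.47 and minus tazemetostat 6.77 ± 0.49, and these 4 were called. The MAK683 call was lost in 5 of the 6 fits without 1 library (0.85 to 1.27 over the 6), all but that without CPI-0209 library 1.

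ST3GAL5, the GM3 synthase, was higher with the same 4 compounds and stood nearer its vehicle level with the others. Its vehicle level was 2.94, 2.60 and 1.86 CPM. CPI-0209 gave 12.8, 14.6 and 11.8 CPM, Valemetostat 8.54, 9.48 and 13.2, and MAK683 11.9, 11.2 and 14.5. PF-06821497 gave 8.52, 7.52 and 7.64 CPM. The libraries of these 4 groups lay above all vehicle libraries. Tazemetostat gave 3.92, 3.30 and 3.58 CPM, also above the 3 vehicle libraries, and CPI-1205 gave 2.82, 4.62 and 3.98 CPM, overlapping them. The log2 fold change of ST3GAL5 was 2.40 ± 0.21 with CPI-0209, 2.07 ± 0.21 with Valemetostat, 2.34 ± 0.21 with MAK683 and 1.67 ± 0.21 with PF-06821497. It was 0.54 ± 0.21 with tazemetostat (95% interval 0.10 to 0.98) and 0.62 ± 0.21 with CPI-1205 (0.18 to 1.06), neither called. CPI-0209 minus MAK683 was 0.07 ± 0.19 for this gene (-0.33 to 0.46), and minus PF-06821497 it was 0.73 ± 0.19, which was called.

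ST3GAL1 and ST3GAL2, the O-glycan enzymes, were called higher with CPI-0209, Valemetostat and MAK683. ST3GAL1 was at 0.905, 1.26 and 0.606 CPM with vehicle and at 3.34, 4.25 and 3.82 CPM with CPI-0209. It stood at 4.06, 2.42 and 3.36 CPM with Valemetostat and at 3.71, 2.69 and 2.05 CPM with MAK683. All libraries of these 3 groups exceeded all vehicle libraries. PF-06821497 gave 2.23, 1.5 and 1.58 CPM, above the vehicle libraries by a smaller margin. The log2 fold change of ST3GAL1 was 2.03 ± 0.30 with CPI-0209, 1.82 ± 0.29 with Valemetostat, 1.59 ± 0.30 with MAK683 and 0.92 ± 0.30 with PF-06821497. The last was not called by edgeR and was called by DESeq2. With tazemetostat and CPI-1205 the values were 0.27 ± 0.31 and 0.44 ± 0.31.

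ST3GAL2 was at 7.02, 5.75 and 6.10 CPM with vehicle. CPI-0209 gave 13.8, 15.6 and 17 CPM, Valemetostat 11.6, 10.8 and 13.3, and MAK683 10.7, 10.6 and 9.32. For this gene the ranges of vehicle, MAK683, Valemetostat and CPI-0209 followed each other without overlap, narrowly so between MAK683 (up to 10.7) and Valemetostat (from 10.8). PF-06821497 gave 6.70, 9.50 and 5.44 CPM, which spread across the vehicle range. The log2 fold changes of ST3GAL2 were 1.3 ± 0.17 with CPI-0209, 0.92 ± 0.17 with Valemetostat and 0.70 ± 0.17 with MAK683. They were 0.04 ± 0.17 with tazemetostat, 0.20 ± 0.17 with PF-06821497 and 0.25 ± 0.17 with CPI-1205. CPI-0209 minus Valemetostat was 0.38 ± 0.16 (95% interval 0.04 to 0.71) and was not called. CPI-0209 minus MAK683 was 0.60 ± 0.16 (95% interval 0.26 to 0.94), a called difference. That call was kept without CPI-0209 library 1 or MAK683 library 1 and lost without any other 1 of the 6 libraries (0.53 to 0.70 over the 6 fits).

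**Figure D2:**
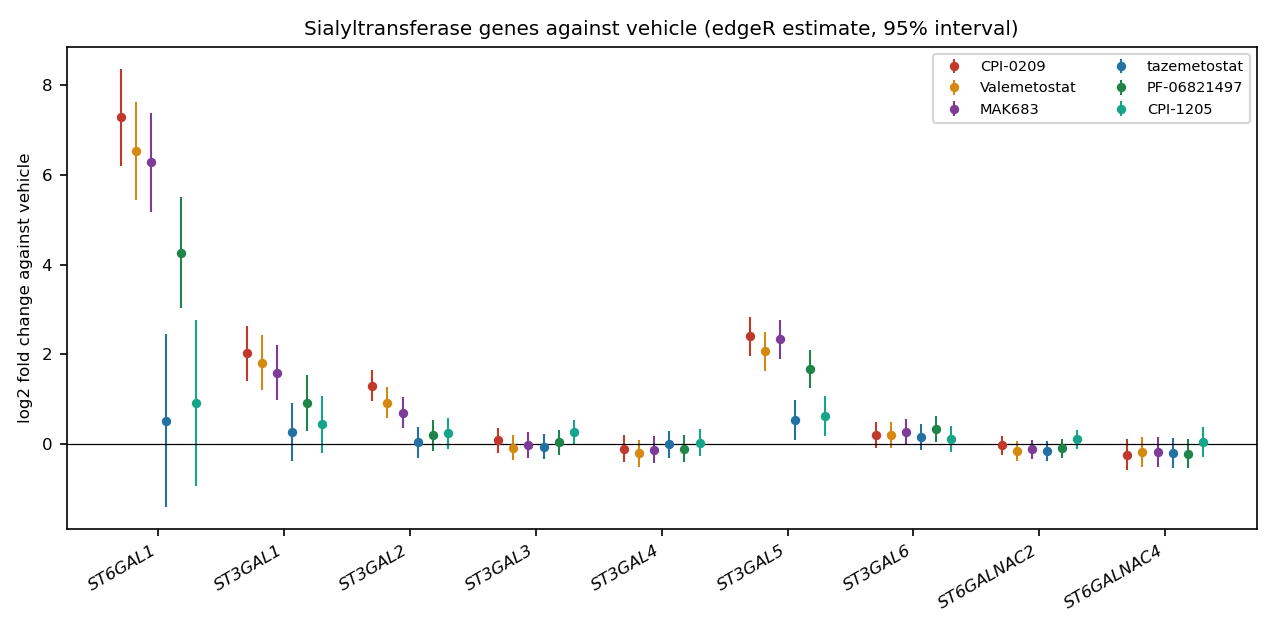
Log2 fold change of each sialyltransferase against vehicle (vertical axis) for the 6 compounds; points are edgeR estimates and bars are 95% intervals, from 3 libraries per group. ST6GAL1 reaches 7.29 with CPI-0209 and ST3GAL5 2.40, and the 5 genes that were not called in any comparison lie nearer 0, at most 0.33 from it.

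The other 5 genes were not called in any of the 6 comparisons. ST3GAL4, ST3GAL3 and ST3GAL6 cap N-acetyllactosamine and related ends on the third carbon of galactose, and ST6GALNAC2 and ST6GALNAC4 act on O-glycans. ST3GAL4 was at 49.8, 48.7 and 42.2 CPM with vehicle and at 39.1, 50.7 and 40.8 CPM with CPI-0209, ranges that overlapped. Its log2 fold change was -0.11 ± 0.15 (95% interval -0.41 to 0.20). For ST3GAL3 the value with CPI-0209 was 0.08 ± 0.14 (-0.20 to 0.37), and for ST3GAL6 0.21 ± 0.14 (-0.09 to 0.50). ST6GALNAC2 gave -0.03 ± 0.10 (-0.24 to 0.19) and ST6GALNAC4 -0.23 ± 0.16 (-0.57 to 0.10). The widest difference among these 5 genes over all compounds was 0.33 ± 0.14, of ST3GAL6 with PF-06821497. ST3GAL6 was at 13.8, 14.4 and 14.3 CPM in the vehicle libraries and at 19.8, 17.4 and 16.1 CPM with PF-06821497, without overlap, and the difference was not called. Its libraries also lay above all vehicle libraries with CPI-0209 (15.9 to 16.6 CPM), Valemetostat (15.5 to 17.4) and MAK683 (16.1 to 18.0). ST6GALNAC4 lay below its vehicle range (28.8 to 29.6 CPM) in all CPI-0209 libraries (21.7 to 27.5 CPM).

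Per length, the 9 genes fell in a steep order in vehicle tumours. ST6GALNAC2 led with 79.5 ± 8.9 TPM (SD, n = 3), followed by ST6GALNAC4 (35.2), ST3GAL4 (33.1), ST3GAL3 (11.0), ST3GAL6 (7.13), ST3GAL2 (2.04), ST3GAL5 (1.40), ST3GAL1 (0.332) and ST6GAL1 (0.0262). The 4 genes called higher with CPI-0209 were the 4 lowest of this order, and the 5 others were the 5 highest. With CPI-0209, ST6GAL1 reached 4.48 ± 0.72 TPM (SD, n = 3), still below ST3GAL4 at 31.8 ± 3.8 TPM. Per 100 TPM of ST3GAL4 there were 0.0795 ± 0.034 TPM of ST6GAL1 with vehicle, 14.0 ± 1.1 with CPI-0209 and 7.32 ± 2.9 with MAK683. ST6GAL1 made up 0.0154% of the summed TPM of the 9 genes with vehicle and 2.45% with CPI-0209. That sum was 170 ± 6.6 TPM with vehicle and 183 ± 11 TPM with CPI-0209, and the libraries of the groups overlapped (162 to 175 and 172 to 194 TPM).

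**Figure D3:**
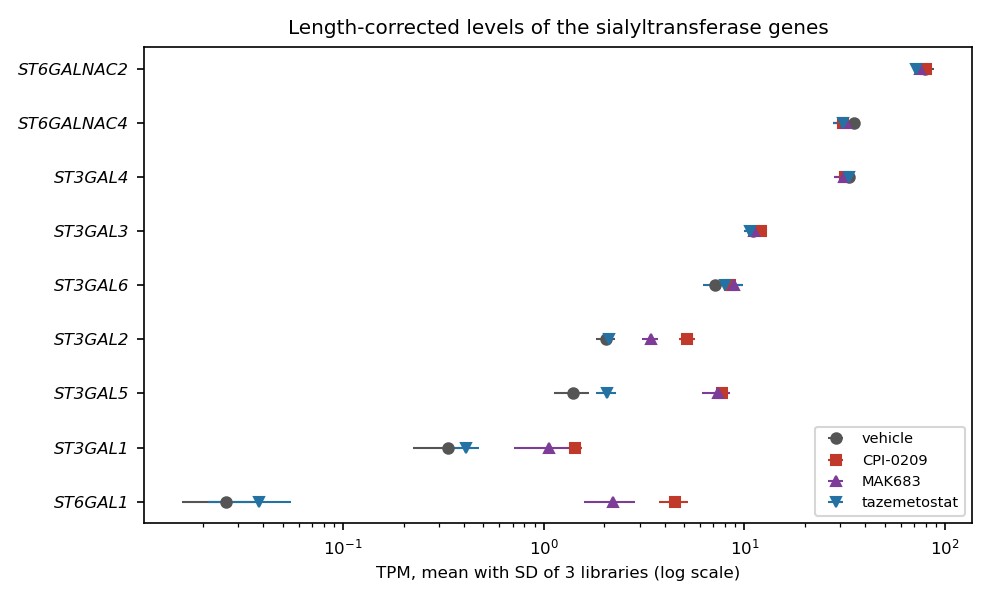
Mean TPM of the 9 sialyltransferases (horizontal axis, log scale) with vehicle, CPI-0209, MAK683 and tazemetostat; bars are the SD of 3 libraries. The 4 genes at the bottom, from ST6GAL1 (0.0262 TPM with vehicle, 4.48 with CPI-0209) to ST3GAL2 (2.04 TPM with vehicle), move to the right with CPI-0209, and the 5 genes above them were not called.

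Of the 11 other human sialyltransferases, 6 passed the filter, which a gene low with vehicle can pass through the treated libraries alone. ST6GALNAC6, which makes gangliosides with a further sialic acid, fell from 50.3 ± 1.8 CPM (SD, n = 3) with vehicle to 29.2 ± 1.3 with CPI-0209 (log2 fold change -0.78 ± 0.13, adjusted p = 6.6e-05). It also fell with Valemetostat (-0.64 ± 0.13, adjusted p = 0.00075). With MAK683 the value was -0.41 ± 0.13 (adjusted p = 0.032), and that call was lost when any 1 of the 6 libraries was left out, with adjusted p from 0.055 (without MAK683 library 2) to 0.12. ST8SIA6, which links sialic acid to sialic acid, that overlaps ST8SIA6-AS1, was at 0.146 CPM with vehicle and at 0.546 CPM with Valemetostat (1.85 ± 0.57, adjusted p = 0.018). Its Valemetostat call was lost without vehicle library 3 (adjusted p = 0.094) or Valemetostat library 1 (0.072). With MAK683 it stood at 0.522 CPM (adjusted p = 0.038), and this call was lost without MAK683 library 1 or 2 or without any vehicle library (adjusted p from 0.058 to 0.22). ST6GALNAC1, which makes the sialyl-Tn antigen, was at 1.76 CPM with vehicle and 1.01 CPM with Valemetostat (adjusted p = 0.049, and 0.072 to 0.19 without any vehicle library or Valemetostat library 1 or 3). ST6GALNAC5, ST8SIA1 and ST8SIA4 were not called by edgeR, although ST8SIA1 passed with CPI-0209 when CPI-0209 library 1 was left out (adjusted p = 0.045). ST8SIA4 was near the threshold with CPI-0209, Valemetostat and MAK683 (0.47 to 0.59 on the log2 scale, adjusted p from 0.051 to 0.083), and passed with CPI-0209 without CPI-0209 library 2 and with MAK683 without MAK683 library 2 or 3. DESeq2 called ST8SIA4 with all 3 of these compounds (0.51, 0.58 and 0.59 on the log2 scale, adjusted p = 0.046, 0.026 and 0.038). ST8SIA1 overlaps CMAS on the opposite strand, and ST6GALNAC6 overlaps ENSG00000257524 on its own strand. ST6GAL2, the paralog of ST6GAL1, did not pass the filter, with a mean of 0.0593 CPM with vehicle and 0.311 CPM with CPI-0209. ST6GALNAC3, ST8SIA2, ST8SIA3 and ST8SIA5 did not pass it either, with group means of at most 0.298 CPM.

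Outside the 9 members, 107 genes of sialic acid and glycan biology were listed with earlier results of these libraries known, and 91 were tested. They include the 11 other sialyltransferases above (6 tested), whose calls are counted again here. The genes named from these lists in the next paragraphs are among the 4 of smallest p in each list. They were picked on those p-values, which are printed as a description. Some that are low with vehicle, such as B3GALT5 and SIGLEC9, can pass the filter through the treated libraries alone. With CPI-0209, 27 of 91 (29.7%) were called higher and 21 (23.1%) lower, beside 22.3% and 18.8% of all genes. Those shares of all genes also stand beside the CPI-0209 counts per list in the next paragraphs, from which nothing is read. With Valemetostat 27 (29.7%) were called higher and 18 (19.8%) lower, beside 15.0% and 12.2% of all genes. With MAK683 19 (20.9%) were higher and 7 (7.69%) lower, beside 10.4% and 5.17%, and with PF-06821497 9 (9.89%) and 7 (7.69%), beside 5.96% and 3.59%. With tazemetostat and CPI-1205 the counts were 0 and 0. At an unadjusted p under 0.05 those last 2 comparisons held 6 and 13 of the 91 genes, beside 2.95% and 12.4% of all genes. Among the 6 compounds alone, an overall edgeR test called 45 of the 91, beside 32.3% of all genes. CPI-0209 differed from tazemetostat in 42 of the 91 (37.0% of all genes), from CPI-1205 in 41 (35.2%), from PF-06821497 in 31 (22.6%) and from MAK683 in 19 (9.08%). It differed from Valemetostat in 0 of 91 and in 0% of all genes by edgeR, and in 1 of 91 by DESeq2 and by limma-voom. In the same comparisons 4, 4, 4, 2 and 0 of the 9 members were called.

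**Figure D4:**
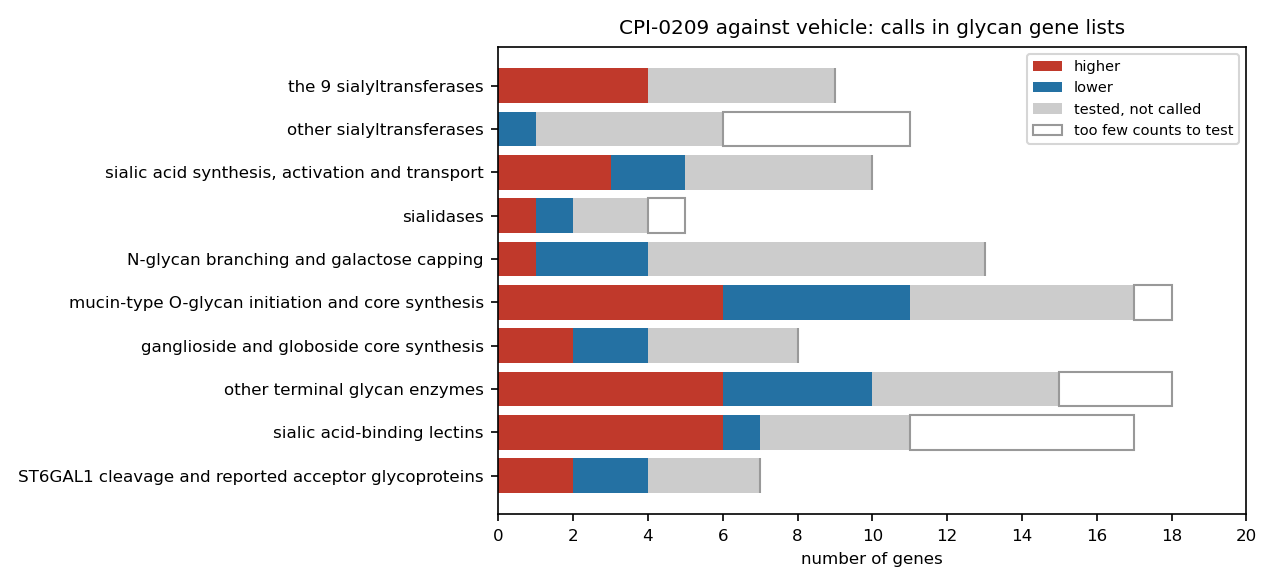
Number of genes (horizontal axis) called higher, called lower, tested but not called, or with too few counts to test, in each glycan gene list for CPI-0209 against vehicle (edgeR, 3 libraries per group). Of the 17 tested O-glycan genes, 6 were higher and 5 lower, beside 22.3% and 18.8% of all tested genes.

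In the supply of sialic acid, 3 of 10 genes were called higher with CPI-0209 and 2 lower. RENBP, an epimerase of N-acetylated hexosamines, was at 0.178 CPM with vehicle and 0.889 CPM with CPI-0209 (adjusted p = 0.0021, and 0.053 without CPI-0209 library 2). SIAE, an acetylesterase of sialic acid, gave 0.30 ± 0.11, and its call was lost without CPI-0209 library 3 (adjusted p = 0.085) or without vehicle library 2 (0.11) or 3 (0.067). The lysosomal exporter SLC17A5 gave -0.38 ± 0.12 (adjusted p = 0.013, and 0.15 without vehicle library 3 or 0.071 without CPI-0209 library 1). The Golgi CMP-sialic acid transporter SLC35A1 gave -0.45 ± 0.15 (adjusted p = 0.021, and 0.18 without CPI-0209 library 1 or 0.054 without vehicle library 2). Of the 4 tested sialidase-list genes, the cytosolic sialidase NEU2 fell from 2.5 ± 0.95 to 0.519 ± 0.15 CPM (-2.24 ± 0.54, adjusted p = 0.0022). The lysosomal sialidase NEU1 rose from 44.0 to 62.8 CPM (0.51 ± 0.15, adjusted p = 0.0087, and 0.080 without CPI-0209 library 2). Its partner CTSA and the membrane sialidase NEU3 were not called (-0.28 ± 0.20 and 0.08 ± 0.13).

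N-glycan assembly supplies the galactose ends on which ST6GAL1 acts, and 1 of its 13 genes was called higher and 3 lower with CPI-0209. B4GALT1, which adds that galactose, rose from 121 ± 9.1 to 181 ± 5.3 CPM (0.58 ± 0.11, adjusted p = 0.0003). MGAT5, which starts a branch of complex N-glycans, fell from 65.8 ± 5.8 to 36.5 ± 2.7 CPM (-0.85 ± 0.12, adjusted p = 6.7e-06). MGAT3, which adds the bisecting sugar, fell by 1.10 on the log2 scale (adjusted p = 4.5e-05), and the galactosyltransferase B4GALT4 fell by 0.49 (adjusted p = 0.0002). MGAT5 and MGAT3 were also called lower with Valemetostat, MAK683 and PF-06821497, and the MAK683 call of MGAT3 was lost without MAK683 library 1 (adjusted p = 0.055) or vehicle library 3 (0.056).

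In mucin-type O-glycan synthesis, whose products ST3GAL1, ST3GAL2 and the ST6GALNAC enzymes cap, 6 of 17 tested genes were called higher and 5 lower with CPI-0209. GALNT14, an initiating N-acetylgalactosaminyltransferase, rose from 0.513 ± 0.17 to 38.3 ± 12 CPM (6.19 ± 0.34, adjusted p = 2.9e-10). It was at 17.2 CPM with Valemetostat, 11.1 with MAK683, 2.22 with PF-06821497, 0.875 with tazemetostat and 0.707 with CPI-1205, an order close to that of ST6GAL1. GALNT5, another initiating enzyme, rose by 3.15 ± 0.40 (adjusted p = 2.5e-06), and B3GNT3, which extends the core, by 0.88 ± 0.12 (adjusted p = 9.4e-06). GCNT4, a branching enzyme of the core, fell from 45.4 ± 0.96 to 16.0 ± 2.2 CPM (-1.50 ± 0.15, adjusted p = 1.4e-07).

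In ganglioside and globoside synthesis, 2 of 8 genes were called higher and 2 lower with CPI-0209. B4GALNT1, which extends the GM3 made by ST3GAL5, rose from 1.09 ± 0.11 to 13.2 ± 2.9 CPM (3.60 ± 0.28, adjusted p = 5.5e-09), and stood at 4.10 CPM with PF-06821497 and 1.12 CPM with CPI-1205. The globoside enzyme B3GALNT1 rose by 1.79 ± 0.24 (adjusted p = 4.1e-06). UGCG, which makes the glucosylceramide at the base of these lipids, fell from 163 ± 1.8 to 109 ± 11 CPM (-0.58 ± 0.13, adjusted p = 0.0011). GM2A, the activator protein of ganglioside breakdown, fell by 1.21 on the log2 scale (adjusted p = 1.2e-07).

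Among the other terminal glycan enzymes, 6 of 15 tested genes were called higher and 4 lower with CPI-0209. The fucosyltransferases FUT4 and FUT3, which build Lewis-type ends, rose by 1.93 ± 0.22 (adjusted p = 7.7e-07) and 1.72 ± 0.25 (adjusted p = 1.2e-05). The blood group transferase ABO rose by 2.07 ± 0.25 (adjusted p = 1.0e-06). B3GALT5, a galactosyltransferase that makes chains on which Lewis antigens are built, was at 0.0140 CPM with vehicle and 1.48 CPM with CPI-0209 (adjusted p = 4.6e-05). FUT3 shares close sequence with its paralogs, and its counts are less certain for that reason.

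Of 11 tested sialic acid-binding lectins, 6 were called higher and 1 lower with CPI-0209. These are mainly leukocyte genes. SIGLEC10 was at 0.105 CPM with vehicle and 1.66 CPM with CPI-0209 (adjusted p = 4.4e-06), CD33 at 0.0746 and 1.99 CPM (adjusted p = 3.4e-05) and SIGLEC9 at 0.0151 and 0.531 CPM (adjusted p = 0.00033). Of 7 genes for the cleavage of ST6GAL1 and for glycoproteins reported to carry its product, 2 were called higher and 2 lower. The adhesion molecule PECAM1 rose from 1.99 ± 0.43 to 27.4 ± 4.4 CPM (3.78 ± 0.25, adjusted p = 1.0e-09), and the leukocyte phosphatase PTPRC from 0.180 to 1.47 CPM (adjusted p = 0.00022). Of the 8 T and NK lymphocyte markers 3 were tested, and all 3 were called higher with CPI-0209. The list summed to 0.932 to 1.09 CPM with vehicle and 5.02 to 7.18 CPM with CPI-0209. Beside these calls, 22.3% of all tested genes were called higher and 18.8% lower. Markers low with vehicle can pass the filter through the treated libraries alone, so nothing is read from the numbers of markers called. Of the 12 macrophage and granulocyte markers 11 were tested, and 6 were called higher and 1 lower with CPI-0209. That list summed to 1192 to 1764 CPM with vehicle and 1658 to 1823 CPM with CPI-0209. Its sum mainly follows S100A8, which held 712192 counts over all libraries, where the next marker, ITGAM, held 43452. The part of leukocytes in these gene lists was not tested. The receptor EGFR fell from 805 ± 140 to 326 ± 65 CPM (-1.30 ± 0.19, adjusted p = 1.0e-05), and the integrin ITGB1 by 0.57 on the log2 scale (adjusted p = 0.006).

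Over the 21 libraries, the genes whose log2 CPM ran most like ST6GAL1 among 15252 genes were LRRC8C (Pearson r = 0.986), PECAM1 (0.985), SIRPA (0.983), PAK1 (0.983) and CD70 (0.982). These values describe likeness only, since the points share libraries, groups and depth. LRRC8C was at 0.614 CPM with vehicle, 10.3 with CPI-0209, 5.41 with MAK683 and 0.827 with tazemetostat. SIRPA was at 4.98, 98.3, 49.7 and 6.92 CPM in the same groups.

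Of the 5 nearest genes with a symbol on either side of ST6GAL1, 5 had enough counts to test. A gene that is low with vehicle can pass the filter through the CPI-0209 libraries alone. The adjusted p-values of RPL39L, RTP1 and MASP1 are therefore a description, and no count of calls is read from these 5 genes. Upstream, the ribosomal protein pseudogene RPS20P14 went from 0.362 to 1.06 CPM (1.57 ± 0.46, adjusted p = 0.0088). Downstream, RPL39L, which lies 42395 bases past the end of ST6GAL1, was at 0.0435 CPM with vehicle and 0.859 CPM with CPI-0209 (adjusted p = 7.0e-05). Reads of these ribosomal protein copies may be shared with their parent genes, so their values are uncertain. RTP1 was at 0.0461 and 0.573 CPM (adjusted p = 0.0017) and MASP1 at 0.150 and 0.850 CPM (adjusted p = 0.0091). RTP4, 289779 bases away, rose from 7.64 to 18.8 CPM (1.3 ± 0.19, adjusted p = 1.1e-05). Against vehicle, RPL39L, RTP1 and RTP4 were also called higher with Valemetostat (adjusted p = 0.0059, 0.036 and 0.00026) and RTP1 with PF-06821497 (0.041), and no other comparison of these 5 genes was called by edgeR. MCF2L2P1, ADIPOQ, ADIPOQ-AS1, RPL29P9 and LINC02041 had too few counts to test.

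ST6GAL1 is also known to be abundant in B cells, liver and endothelium, so the marker lists of those cells were read beside it. With CPI-0209, 22.3% of all tested genes were called higher and 18.8% lower. Markers low with vehicle can pass the filter through the treated libraries alone, so nothing is read from the numbers of markers called. The 8 B and plasma cell markers summed to 2.94 to 3.53 CPM with vehicle and 6.19 to 6.98 CPM with CPI-0209, with 3 of 3 tested genes called higher. The call of CD22 among them was lost when any vehicle library, or the second or the third of CPI-0209, was left out (adjusted p from 0.065 to 0.16). The defining marker MS4A1 had 0 counts in 13 of the 21 libraries and its highest level, 0.115 CPM, was in a CPI-0209 library. The highest levels of CD79B (0.575 CPM), MZB1 (0.632), JCHAIN (0.860) and PAX5 (0.956) were in CPI-0209 libraries too, and that of CD79A (0.208) was with PF-06821497. The 6 hepatocyte markers summed to 16.8 to 22.9 CPM with vehicle and 46.7 to 79.6 CPM with CPI-0209, and 1 of 2 tested genes was called higher. This was SERPINA1 (1.61 ± 0.24, adjusted p = 2.5e-05), at up to 78.9 CPM in a CPI-0209 library. ALB, a defining hepatocyte gene, was highest in a CPI-0209 library, at 0.345 CPM. The 11 endothelial markers summed to 33.6 to 35.4 CPM with vehicle, 105 to 136 with CPI-0209, 86.7 to 111 with Valemetostat, 83.1 to 101 with MAK683, 48.7 to 72.5 with PF-06821497, 37.9 to 42.4 with tazemetostat and 30.6 to 43.2 with CPI-1205. Of the 10 tested, 7 were called higher and 2 lower with CPI-0209. PECAM1, CLDN5 and ROBO4 rose (3.78, 4.28 and 2.64 on the log2 scale), while CDH5 stood at 1.88 CPM with vehicle and 0.804 with CPI-0209, and VWF at 3.07 and 1.33 CPM. The 8 carcinoma markers summed to 8062 to 8356 CPM with vehicle and 5576 to 6470 CPM with CPI-0209. In CPI-0209 library 3, the smallest library, the 11 skeletal muscle markers summed to 1636 CPM. They summed to 498 and 406 CPM in CPI-0209 libraries 1 and 2, and to 607 to 644 CPM with vehicle. The 10 fibroblast markers summed to 4270 CPM in CPI-0209 library 3, 1606 and 2056 CPM in libraries 1 and 2, and 1050.5 to 1722 CPM with vehicle. The part of these other cell types, and of mouse reads counted as human, in the ST6GAL1 result was not tested.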

How the data were processed

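The authors deposited raw counts per Ensembl gene for each library. Per the labels' protocols, RNA came from frozen tumours and was sequenced as paired reads on an Illumina HiSeq after a TruSeq RNA v2 kit. STAR 2.7.3a, RSEM 1.3.1 and the hg38 build are listed in the submitters' processing notes. Which program counted, with which strand setting, and how mouse reads were handled is not given in the sources used here. A symbol was found for 40907 of the 57500 genes through GENCODE release 29.

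The members and gene lists were chosen with earlier results of these data known. Counts were filtered (filterByExpr), scaled by TMM and fitted for all 21 libraries together in edgeR 4.0.16 (R 4.3.3) with robust quasi-likelihood (14 residual degrees of freedom), and p-values were adjusted by Benjamini-Hochberg. p-values measure the spread between libraries, which may be technical. TPM used the files' gene lengths. The fit was tested on simulated counts. Named genes are the 9 members, the 11 other family genes, the 4 genes of smallest p in each other list, the 5 nearest genes with a symbol on either side of ST6GAL1, the 5 most like it (mean of at least 1 CPM) and genes overlapping a member. A gene that this rule names is not reported here. ENSG00000267078, ENSG00000233674 and ENSG00000257524 have no symbol. CDH5, VWF, MS4A1, CD79A, CD79B, MZB1, JCHAIN, PAX5, ALB and SERPINA1 were added from the marker lists after their values were seen. DESeq2 1.42.0, limma 3.58.1, other scalings and filters, a replicate block and leaving out libraries were alternatives. The sample titles mark PF-06821497 library 1 and CPI-1205 libraries 2 and 3 as resubmitted. Leaving those out kept only library 1 of CPI-1205. Marks in the count columns were read separately.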

Additional observations from a re-analysis of the deposited data

How the results depend on the processing

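ST6GAL1 kept its direction and its side of the threshold under every alternative that gave it an adjusted p. Those alternatives numbered 15 for CPI-1205, 16 for tazemetostat and 17 for each other compound. DESeq2 gave ST6GAL1 no adjusted p with CPI-1205. A fit of only the 2 groups compared left ST6GAL1 untested for tazemetostat and CPI-1205, where its counts were few. As ST6GAL1 was chosen from these data, this steadiness is a description. Its log2 fold change with CPI-0209 was 6.92 to 7.49. The 4 members called with CPI-0209, Valemetostat and MAK683 remained 4 under each alternative. With PF-06821497 the count was 2 or 3, the third being ST3GAL1. ST3GAL1 was called with DESeq2, a filter of at least 1 CPM in 3 libraries, upper-quartile scaling, the mean level of skeletal muscle markers as a covariate (chosen after seeing the data), without the libraries whose count column is marked as resubmitted, or without vehicle library 2. The replicate numbers were not shown to pair the samples. After group means were taken out, 15 of 63 same-number pairs from different groups had a correlation over 0.1 (median -0.05). Of 126 pairs with different numbers, 38 did (median 0.02). With the number as a replicate block the CPI-0209 members called higher were 4. For the 91 pathway genes, called in CPI-0209 against Valemetostat were 1 by DESeq2, 1 by limma-voom and 3 with no low-count filter, against 0. Called lower with CPI-1205 were 3 by DESeq2 (where 74 adjusted values were NA), 4 with no low-count filter and 1 without the libraries whose count column is marked as resubmitted (an alternative chosen after seeing the data). Called higher with tazemetostat was 1 with no low-count filter. With MAK683, 11 were lower without the marked libraries. Leaving out 1 library gave 11 to 18 higher with MAK683 (11 without vehicle library 2) and 3 to 6 lower (3 without vehicle library 3, 4 without MAK683 library 2). It gave 5 to 7 higher with PF-06821497 (5 without vehicle library 3). The cause was not tested. Upper-quartile scaling moved the median of all genes to 0.11 with CPI-0209, from -0.02. The overall test was not run in DESeq2. The 5 vehicle counts of ST6GAL1 limit its fold changes.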
